A study of Homo sapiens with 6 samples.

Results

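The genes described here encode the structural subunits of oxidative phosphorylation (OXPHOS), read in HEK293 cells, an established human line of embryonic kidney origin. Members were chosen by gene symbol: the NDUF, SDH, UQCR, CYC1, COX and ATP5 subunit genes of the nucleus and the protein-coding genes of mitochondrial DNA, each with at least 10 counts in 3 or more libraries. This gave 92 genes out of 63140 rows in the deposited table, 79 nuclear and 13 mitochondrial. The table lists the mitochondrial genes without the MT- prefix (ND1, COX1 and so on), so these 13 were found by their Ensembl identifiers. Of 130 rows that matched the symbols, 38 had too few counts, and 32 of those carry pseudogene or readthrough symbols. The other 6 were COX4I2, COX6A2, COX7A1 and COX7B2, at 0 counts in every library, COX8C at 0 to 4 counts and ATP5MGL at 0 to 1.

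Cells that had reached confluence were kept for 24 h with 100 nM GSK-A1 or with its solvent DMSO, and each group had 3 RNA libraries. GSK-A1 is an inhibitor of phosphatidylinositol 4-kinase alpha (PI4KA), the lipid kinase that supplies phosphatidylinositol 4-phosphate to the plasma membrane. All 6 libraries came from the same unmodified line, grown in the same serum-containing medium, and all carried the same lane label. Libraries held 33040178 to 47777233 counts. The line's expected markers NEFL, VIM, KRT8, KRT18, PAX2, LHX1 and EYA1 were present, and INA and NEFM were near 0. Of 10 markers of other cell types, UMOD, HBB and AQP2 had no count in any library. COL1A1, a collagen of fibroblasts, stood at 4.86 to 7.24 CPM, above the 1.93 to 2.78 CPM of PAX2, and DES, a muscle filament, at 0.51 to 0.78 CPM. PTPRC, ALB, PECAM1, NPHS1 and MYH7 lay between 0 and 0.176 CPM. The 10 summed to 7.34 to 8.03 CPM with DMSO and 5.54 to 7.68 CPM with GSK-A1, and their part in the results was not tested. GSK-A1 replicate 2 stood apart from the other libraries, and results that rest on it are given with and without it. In RNA from whole cultures, fewer cells of a type and less RNA per cell cannot be told apart.

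OXPHOS is carried out by complexes in the mitochondrial inner membrane. Complexes I and II pass electrons from NADH and succinate to coenzyme Q, complex III passes them to cytochrome c and complex IV to oxygen, while complexes I, III and IV pump protons that drive ATP synthase. Complex II is built from nuclear genes alone, whereas the other complexes join nuclear subunits to a hydrophobic core translated inside the organelle. Mitochondrial mRNAs come from long transcripts of both DNA strands made by a dedicated polymerase, so the 2 sets of genes answer to separate transcription systems. Nuclear OXPHOS promoters are known for sites of NRF1, of the ETS factor GABPA and of YY1.

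Those 3 motifs were searched in RefSeq promoter windows (GRCh38.p14, 250 bases before to 50 after the start) on both strands, and 65 of the 79 nuclear members had a window. The NRF1 letters GCGCATGCG occurred in 11 of the 65 (16.9%, against 2.34% of 27305 genes). The ETS letters CCGGAAGT occurred in 12 (18.5% against 4.95%) and the YY1 letters AAGATGGCG in 9 (13.8% against 2.14%). The following stretches belong to a member that was called higher with GSK-A1 and to one that was called lower, and capitals mark the match. The ATP5MK stretch lies at chr10:103396588-103396675 on the minus strand with an ETS match in the gene's direction, and the ATP5MC2 stretch at chr12:53676084-53676164 on the minus strand with an NRF1 match on the opposite strand. SDHB, the other member called higher, holds the YY1 letters close to its start. A match is a description of the letters and no evidence of binding.
ATP5MK: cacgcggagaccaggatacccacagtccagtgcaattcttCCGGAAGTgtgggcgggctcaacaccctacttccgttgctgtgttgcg
ATP5MC2: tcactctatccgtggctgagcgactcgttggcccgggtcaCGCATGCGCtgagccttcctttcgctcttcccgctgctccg

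Levels were read as CPM, counts scaled to a common library total after TMM normalization, and levels of different genes were compared per kilobase of principal transcript. With DMSO the nuclear members had a median of 73.7 CPM per kb, from 0.24 for COX6B2 to 690 for ATP5F1B, the catalytic beta subunit of ATP synthase. The mitochondrial members had a median of 3032 CPM per kb, from 392 for MT-ND6 to 13301 for MT-CO2. Every mitochondrial mRNA other than MT-ND6 stood above every nuclear member on this scale, and MT-ND6 was exceeded by ATP5F1B and UQCRH. Among nuclear members the median was lowest in complex II (20.6 CPM per kb) and highest in the membrane part of ATP synthase (174 CPM per kb). NDUFV2 and NDUFA7 were near 1 CPM and shared 74.02% and 73.73% of their 50-base stretches with the rows AP005263.1 and AC010323.1, so their low counts are uncertain. The same limit holds, with smaller shares, for NDUFB8 (55.26%), NDUFS3 (39.07%), COX6B2 (34.2%) and NDUFA13 (30.53%). Still smaller shares were found for other members, among them COX8A (27.73%), SDHD (27.7%), ATP5MK (15.85%), NDUFA11 (14.89%) and NDUFV1 (13.15%).

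**Figure D1:**
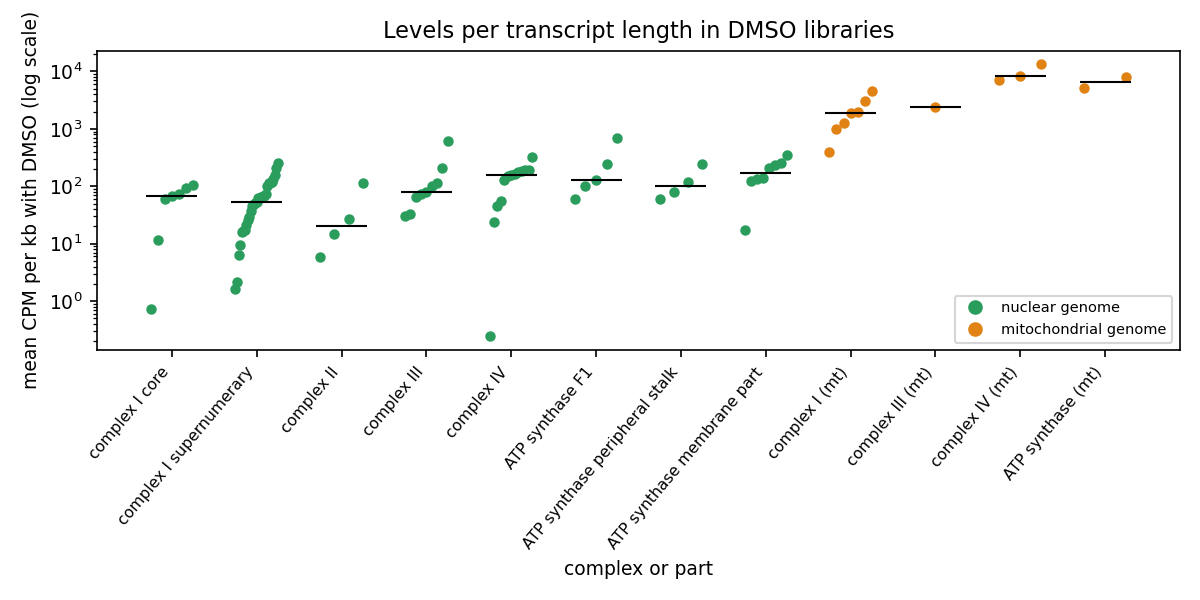
Mean level with DMSO of each OXPHOS gene, in CPM per kilobase of principal transcript on a log axis, grouped by complex or part (horizontal axis). Points are genes and bars are group medians; 12 of the 13 mitochondrial mRNAs lie above all 79 nuclear members.

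The comparison of GSK-A1 with DMSO showed small and mostly downward differences in the nuclear subunits. Of the 79 nuclear genes, 11 were lower, 2 were higher and 66 were not called by edgeR's quasi-likelihood test at an adjusted p under 0.05. In this fit all 13 called genes belong to complex I, complex II or ATP synthase, and the called differences ran from -0.23 to 0.13 in log2 units. Over all 16754 genes tested, 3835 (22.9%) were called, 2007 of them higher (12.0%) and 1828 lower (10.9%). The share of nuclear members called lower (13.9%) was therefore near the background, and the share called higher (2.53%) was below it. The median log2 fold change of the nuclear members was -0.05 beside -0.01 for all genes tested, and 59 of 79 (74.7%) had a negative sign beside 52.5% of all genes. In 23 of the 79 (29.1%) all 3 GSK-A1 libraries lay below all 3 DMSO libraries, as in 20.4% of all genes, and in 6 (7.59%) all lay above, as in 20.2%.

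The counts of called members depended on transcript length and on library scaling. The longest annotated transcript had a median of 1582 bases in the nuclear members, 784 in the mitochondrial members and 3344 in all genes tested. When each library's trend of level on transcript length was removed, 2 nuclear members were called lower (ATP5MC3 and NDUFA11) and 5 higher (SDHB, ATP5MK, UQCRH, COX7A2L and ATP5F1C). The background was then 8.83% lower and 13.7% higher, and the nuclear median was -0.0018 beside 0.01 for all genes. This trend used the longest transcript, which was 5484 bases for ATP5MC3 and 2406 for NDUFA11. Their principal transcripts were 842 and 539 bases. With the trend on principal-transcript length removed, 1 of the 11 kept its lower call and 6 members were higher. That fit called 3804 of the 16754 genes tested. Upper-quartile scaling gave the opposite split, with 24 lower and none higher, that is 0 of 79. Under that scaling 16.0% of all genes were lower and 7.99% higher, and the median of all genes was -0.05. Without GSK-A1 replicate 2, 20 nuclear members were lower, all 11 first called among them, and 3 were higher (SDHB, ATP5MK and COX7A2L), against a background of 12.9% lower and 15.2% higher. Leaving out any 1 of the other 5 libraries left 2 to 9 lower and 0 to 1 higher. Calls over all genes also fell, from 3835 of 16754. They were 2163 of 16767, 2213 of 16729 and 2206 of 17378 without DMSO replicate 1, 2 or 3. Without GSK-A1 replicate 1 or 3 they were 2674 of 16775 and 3805 of 17347.

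**Figure D2:**
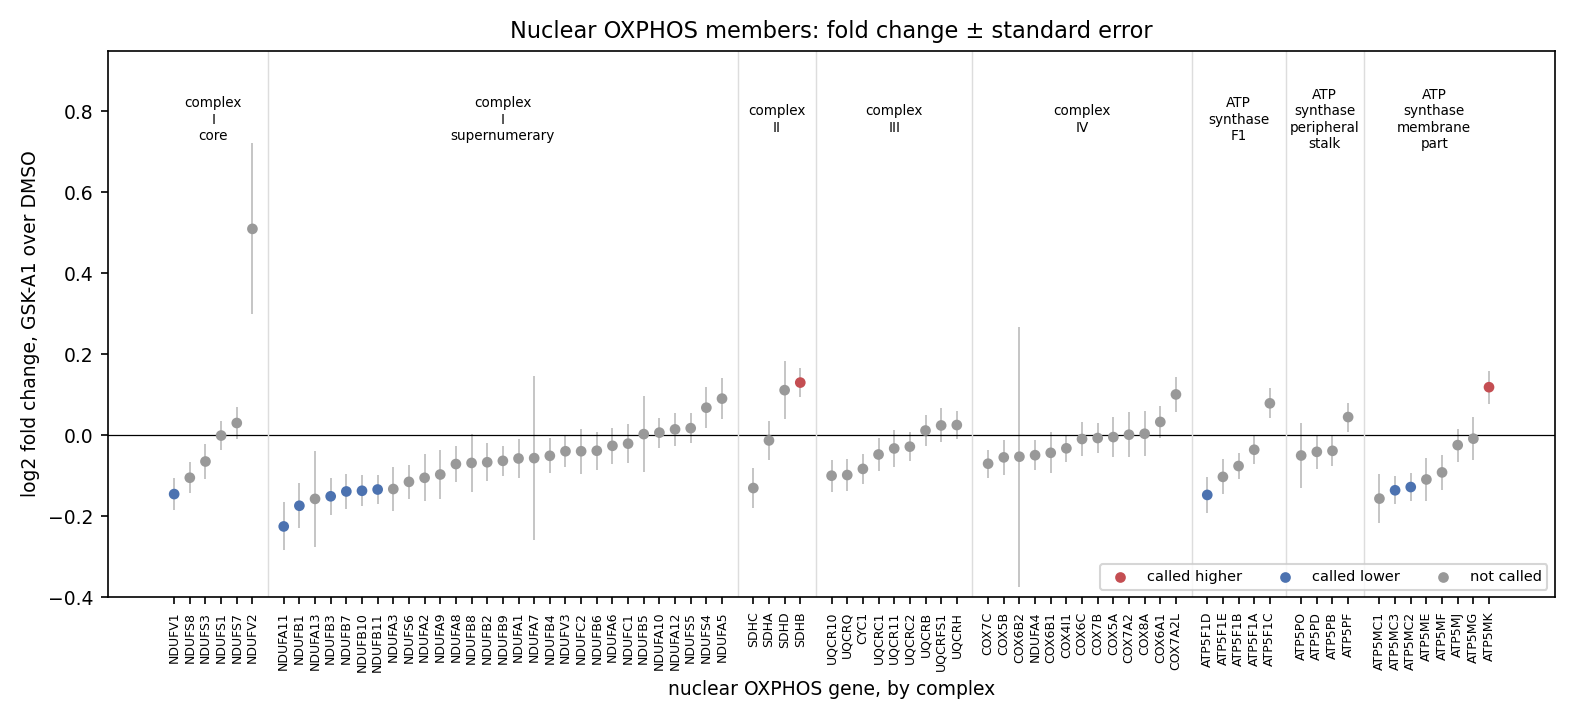
Log2 fold change (GSK-A1 over DMSO, vertical axis) of 78 of the 79 nuclear OXPHOS genes, ordered within its complex (horizontal axis); bars are standard errors. Blue points mark 10 genes called lower, red points the 2 called higher and grey points the 66 not called, most of which lie between -0.16 and 0.11.

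Complex I held 8 of the 11 lower genes, out of 36 nuclear subunits measured (22.2%, beside 10.9% of all genes tested), and none was higher (0 of 36, beside 12.0%). With the trend on longest-transcript length removed NDUFA11 was the 1 of these 8 still called lower. NDUFV1 (ENSG00000167792), the flavoprotein subunit at which NADH is oxidised, read 149.9, 151 and 148 CPM in replicates 1 to 3 of DMSO, and 139, 128 and 139 CPM in those of GSK-A1. Every GSK-A1 library was below every DMSO library. With standard errors throughout, the log2 fold change of NDUFV1 was -0.15 ± 0.04 (edgeR adjusted p = 0.0157). Of the 7 core subunits measured, 2 were lower (28.6%, beside 10.9% of all genes tested) and 5 were not called. Among the latter, NDUFS1, the large iron-sulfur subunit, was nearly level (-0.00071 ± 0.03), and NDUFV2 read 0.51 ± 0.21 (edgeR adjusted p = 0.0930) at 0.616 to 1.08 CPM.

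Of the 29 supernumerary subunits, which surround the catalytic core, 6 were lower (20.7%, beside 10.9% of all genes tested). None was called higher (0 of 29, beside 12.0%). NDUFA11 (ENSG00000174886), a membrane-arm subunit, had the lowest fold change of all nuclear members. It stood at 28.3, 26.2 and 27.6 CPM with DMSO and at 22.4, 22.5 and 25.4 CPM with GSK-A1, so the groups did not overlap but GSK-A1 replicate 3 was close to the lowest DMSO library. It fell by 0.23 ± 0.06 in log2 units, or by 14.5% (edgeR adjusted p = 0.0121). NDUFB10 (ENSG00000140990), another subunit of the membrane arm, stood at 108, 114 and 111 CPM with DMSO and at 101, 101 and 102 CPM with GSK-A1. The GSK-A1 libraries of NDUFB10 were nearly equal and all below DMSO (-0.14 ± 0.04, edgeR adjusted p = 0.0161).

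NDUFB11 (ENSG00000147123), an X-linked membrane-arm subunit, stood at 168, 167 and 165 CPM with DMSO and at 156, 149 and 151 CPM with GSK-A1. Its fold change was -0.13 ± 0.04 (edgeR adjusted p = 0.0129), again without overlap. On the opposite strand RBM10 covers 44.85% of the annotated NDUFB11 transcript, and the strand setting of the counting is not given, so reads of the 2 genes may be mixed. NDUFB1, NDUFB3 and NDUFB7 complete the 6 and were named after their values were seen. Their log2 fold changes were -0.17 ± 0.06, -0.15 ± 0.05 and -0.14 ± 0.04 (edgeR adjusted p = 0.0331, 0.0237 and 0.0263). NDUFB3 was the tightest of them with GSK-A1, at 35.9, 35.9 and 36.1 CPM against 40.9, 39.8 and 38.9 CPM with DMSO. The 23 subunits not called ran from -0.16 for NDUFA13 to 0.09 for NDUFA5.

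Complex II, succinate dehydrogenase, has 4 subunits and in the fit first described was the one respiratory complex with a member called higher. This was 1 gene of 4 (25%), beside 12.0% of all genes tested, and the other subunits were not called. With the length trend removed, UQCRH of complex III and COX7A2L of complex IV were also called higher. With the trend on GC content removed, NDUFS7 of complex I was. SDHB (ENSG00000117118), the iron-sulfur subunit, stood at 135, 133 and 133 CPM with DMSO and at 147, 149 and 143 CPM with GSK-A1. The gap between the groups was wider than the range within either, and SDHB rose by 0.13 ± 0.04 in log2 units (9.44%; edgeR adjusted p = 0.0162). SDHA, the flavoprotein that binds succinate, did not differ beyond its spread (-0.01 ± 0.05). SDHC and SDHD, the membrane anchors that hold heme and bind quinone, took opposite signs without a call. SDHC stood at 79.7, 83.4 and 78.0 CPM with DMSO and at 79.1, 69.8 and 71.2 CPM with GSK-A1 (-0.13 ± 0.05, edgeR adjusted p = 0.0657). SDHD stood at 37.9, 39.1 and 37.4 CPM with DMSO and at 38.1, 47.4 and 38.5 CPM with GSK-A1 (0.11 ± 0.07, edgeR adjusted p = 0.294). The SDHD value was set by GSK-A1 replicate 2, the only library away from the rest.

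No nuclear gene of complex III was called (0 of 9), and none of complex IV (0 of 13), beside 22.9% of all genes tested. This depended on the fit. Without GSK-A1 replicate 2, UQCR10, UQCRQ, COX5B and COX7C were called lower and COX7A2L higher. With the length trend removed, UQCRH and COX7A2L were called higher. In complex III the fold changes ran from -0.10 for UQCR10, a small subunit, to 0.03 for UQCRH, the hinge protein beside cytochrome c1. CYC1, which encodes cytochrome c1, stood at 148, 140.2 and 142 CPM with DMSO and at 136, 133 and 137 CPM with GSK-A1. These libraries did not overlap, yet the difference missed the threshold (-0.08 ± 0.04, edgeR adjusted p = 0.118). UQCR10 and UQCRQ likewise lay wholly below DMSO with edgeR adjusted p = 0.0768 and 0.0795.

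In complex IV the isoforms showed which version of the enzyme the line expresses. COX4I1, COX6A1, COX6B1, COX7A2, COX7B and COX8A, the versions found in most tissues, had means of 85.4 to 236 CPM with DMSO. Their alternatives, chiefly of heart, muscle, lung or testis, were at 0 counts (COX4I2, COX6A2, COX7A1, COX7B2), at most 4 counts (COX8C) or below 0.53 CPM (COX6B2). A count of 0 allows up to 3 counts in a library. None of the common isoforms was called, and their log2 fold changes lay between -0.04 and 0.03. The sign turned for all 6 of them under at least 1 of the other scalings, filters or trend corrections run. COX7A2L, which helps join complexes III and IV into supercomplexes, stood at 69.0, 75.1 and 70.6 CPM with DMSO and at 77.8, 75.3 and 77.1 CPM with GSK-A1. GSK-A1 replicate 2 exceeded the highest DMSO library by little, and the difference was not called (0.10 ± 0.04, edgeR adjusted p = 0.101).

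ATP synthase had 3 lower genes (17.6%, beside 10.9% of all genes) and 1 higher gene (5.88%, beside 12.0%) among its 17 nuclear members. Of the lower genes ATP5MC3 alone was called with the trend on longest-transcript length removed. None of the 4 genes of the peripheral stalk was called (0 of 4, beside 22.9% of all genes tested). This depended on the fit. ATP5PO was called lower without GSK-A1 replicate 2, and ATP5PF higher with the trend on principal-transcript length removed. ATP5F1D (ENSG00000099624), the delta subunit of the central stalk, stood at 91.3, 90.6 and 85.0 CPM with DMSO and at 76.6, 82.3 and 82.4 CPM with GSK-A1. Its groups did not overlap, and its difference of -0.15 ± 0.04 was called (edgeR adjusted p = 0.0237). The catalytic beta subunit ATP5F1B, the most abundant nuclear member, was at 1288, 1283 and 1235 CPM and then 1227, 1208 and 1175 CPM. That difference of -0.08 ± 0.03 was not called (edgeR adjusted p = 0.0911).

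ATP5MC1, ATP5MC2 and ATP5MC3 encode precursors of the same mature c subunit, which forms the rotating ring. ATP5MC3 (ENSG00000154518) stood at 219.6, 212 and 212 CPM with DMSO and at 193, 195 and 198 CPM with GSK-A1. ATP5MC2 (ENSG00000135390) stood at 304, 314 and 306 CPM with DMSO and at 287, 287 and 272 CPM with GSK-A1. ATP5MC1 stood at 84.7, 80.9 and 84.4 CPM with DMSO and at 80.5, 66.1 and 77.3 CPM with GSK-A1. All 3 genes were lower in every GSK-A1 library than in any DMSO library, with similar fold changes of -0.14 ± 0.03, -0.13 ± 0.04 and -0.16 ± 0.06. The test called ATP5MC3 and ATP5MC2 (edgeR adjusted p = 0.0105 and 0.0159) but not ATP5MC1 (edgeR adjusted p = 0.0788), whose GSK-A1 replicate 2 was far below the others. ATP5MK (ENSG00000173915), a small membrane subunit at the contact between ATP synthase dimers, went the other way. It stood at 88.3, 91.8 and 86.5 CPM with DMSO and at 97.3, 93.4 and 98.9 CPM with GSK-A1, a rise of 0.12 ± 0.04 (edgeR adjusted p = 0.0445). MIR1307 overlaps 15.37% of the ATP5MK transcript on the same strand.

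The mitochondrially encoded genes gave no call among 13 by edgeR, beside 22.9% of all genes tested. None of the 13 had an unadjusted p under 0.05, and DESeq2 and limma-voom also called 0. Their log2 fold changes ran from -0.22 for MT-ND6 to 0.08 for MT-ATP8, with a median of -0.06 and 11 of 13 negative. Their standard errors were 0.10 to 0.17, beside a median of 0.04 for the nuclear members, so differences of the size called in nuclear genes were not detectable here. GSK-A1 replicate 2 was the lowest of the 6 libraries for 13 of 13 genes, and GSK-A1 replicate 3 was the highest for 11. Against the mean of GSK-A1 replicates 1 and 3, replicate 2 was lower by log2 differences of -0.53 to -0.22 (median -0.42), while the nuclear median of that difference was -0.02. Replicate 2 was the lowest library for 32 of the 79 nuclear members and the highest for 14.

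MT-CO1 (ENSG00000198804), the catalytic subunit of complex IV, stood at 10643, 11116 and 10938 CPM with DMSO and at 10489, 7980 and 11518 CPM with GSK-A1. MT-CYB, cytochrome b of complex III, stood at 2518, 2840 and 2796 CPM with DMSO and at 2641, 2073 and 2871 CPM with GSK-A1. In both, GSK-A1 replicates 1 and 3 lay within or close to the DMSO range and replicate 2 lay below it. The differences were -0.12 ± 0.15 for MT-CO1 and -0.10 ± 0.14 for MT-CYB. MT-ATP6, the proton channel subunit of ATP synthase, showed the same order, at 5167, 5429 and 5646 CPM with DMSO and at 5529, 4378 and 6173 CPM with GSK-A1. MT-ND1, a core subunit at the foot of complex I, stood at 1141, 1223 and 1234 CPM with DMSO and at 1144, 842 and 1243 CPM with GSK-A1.

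MT-ND6 (ENSG00000198695), transcribed from the strand opposite to the other 12, varied most among the DMSO libraries relative to its mean. It stood at 241, 177 and 199 CPM with DMSO and at 192, 159 and 179 CPM with GSK-A1, so DMSO replicate 1 was highest and the groups overlapped. With the replicate number as a block it was the only mitochondrial gene called (-0.21, edgeR adjusted p = 8.43e-04), although same-numbered libraries did not deviate together over all genes.

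**Figure D3:**
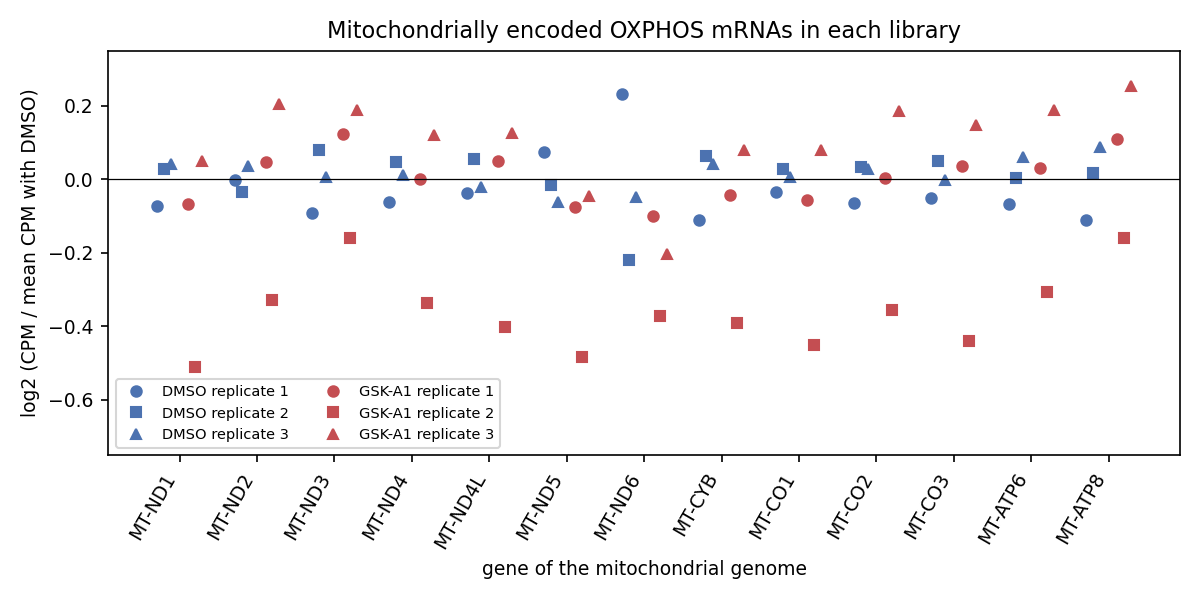
Level of each of the 13 mitochondrially encoded mRNAs in each library, as log2 of CPM over the mean CPM with DMSO (vertical axis); colour marks the group and shape the replicate. GSK-A1 replicate 2 (red squares) is the lowest point in all 13 columns, and GSK-A1 replicate 3 (red triangles) is the highest in 11.

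Without GSK-A1 replicate 2 the mitochondrial median was 0.09. None of the genes was called lower (0 of 13, beside 12.9% of all genes), and 4 of the 13 were called higher against a background of 15.2%. These were MT-ND2 (0.13), MT-ND3 (0.16), MT-ND4L (0.09) and MT-CO3 (0.10), with edgeR adjusted p = 0.00346, 0.00175, 0.00888 and 0.00905. MT-ND2, MT-ND3 and MT-ND4L encode membrane-arm subunits of complex I, and MT-CO3 a core subunit of complex IV. Copies in nuclear DNA share sequence with several mitochondrial genes. Of the 50-base stretches, 49.5% of MT-CO1, 46.68% of MT-ATP6, 43.6% of MT-ND2 and 30.6% of MT-CO3 occur elsewhere in the annotation. For MT-ND3 and MT-ND4L this share was 0.0%. The copies MTCO2P12 and MTCO3P12 held 34 to 51 and 17 to 40 counts with DMSO, and 199 and 98 counts in GSK-A1 replicate 2, beside 47 to 71 and 21 to 29 in the other GSK-A1 libraries. In GSK-A1 replicate 2 MT-CO2 and MT-CO3 themselves held 242749 and 162209 counts. Nuclear copies of mitochondrial genes, summed by symbol, made up 0.0588% of that library's counts, beside 0.0774% to 0.0893% in the other libraries. The part of the copies in the low mitochondrial mRNA counts of that library was not tested.

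The 2 genomes were compared by their summed levels. The nuclear members summed to 9624, 9667 and 9414 CPM with DMSO and to 9377, 9285 and 9177 CPM with GSK-A1, so every GSK-A1 library lay below every DMSO library, by 289 CPM on average. The mitochondrial mRNAs summed to 47035, 49725 and 49341 CPM with DMSO and to 48610, 37381 and 53372 CPM with GSK-A1, where the treated libraries were both the lowest and the highest. The ratio of mitochondrial to nuclear sums averaged 5.09 ± 0.18 (SD, n = 3) in the DMSO libraries and 5.01 ± 0.91 (SD, n = 3) in the GSK-A1 libraries. The log2 ratio differed by -0.04, within the spread between replicates, and by 0.11 in the other direction without GSK-A1 replicate 2. The nuclear sum was as low in the other GSK-A1 libraries, with a difference of -291 CPM when replicate 2 was left out.

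**Figure D4:**
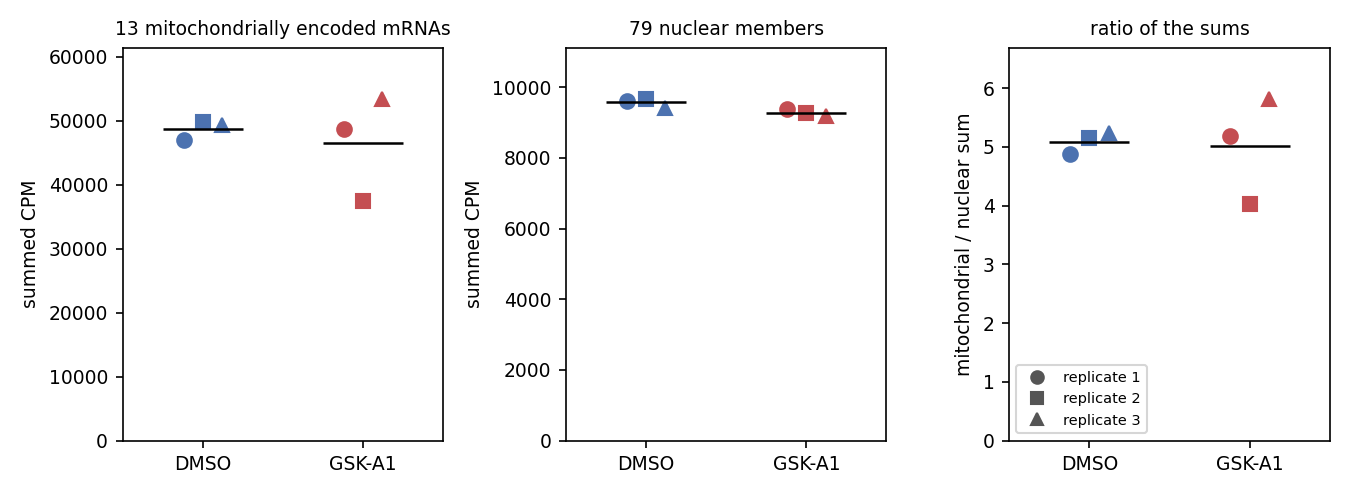
Summed CPM of the 13 mitochondrial mRNAs (left) and of the 79 nuclear members (middle), and the ratio of the sums (right), in each library of each group (horizontal axis). Points are libraries, with shape marking the replicate, and bars are group means; the nuclear sums of GSK-A1 are all below those of DMSO, while the mitochondrial sums of GSK-A1 spread from 37381 to 53372 CPM around the DMSO values.

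Within the mitochondrial mRNAs, each gene was also read as a percentage of the 13 genes' CPM in its library, which takes out a common shift. MT-CO1 made up 22.6%, 22.4% and 22.2% with DMSO and 21.6%, 21.3% and 21.6% with GSK-A1. MT-ND1 was the other gene whose share was lower in every GSK-A1 library (2.46% ± 0.04, SD, n = 3, against 2.31% ± 0.05). The shares of MT-ATP8 (2.23% ± 0.10 and 2.48% ± 0.10), MT-ND2 (4.13% ± 0.16 and 4.30% ± 0.03) and MT-ND3 (1.35% ± 0.04 and 1.49% ± 0.09) were higher in every GSK-A1 library. The other 8 overlapped between groups. In CPM rather than shares, 0 of the 13 genes lay wholly below or above DMSO. Over all genes tested, 20.4% lay wholly below and 20.2% wholly above in CPM. Shares within a sum are not independent of each other, and no test was made on them. The MT-ATP8 and MT-ATP6 reading frames overlap over 22.2% of MT-ATP8, so reads there cannot be split between them.

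The ribosomal RNAs of the same genome, which are no members, were lower with GSK-A1 in MT-RNR1 for all libraries (588, 526 and 486 CPM, then 408, 343 and 444 CPM). This difference of -0.42 ± 0.12 was not called (edgeR adjusted p = 0.0714), nor was that of MT-RNR2 (-0.23 ± 0.11, edgeR adjusted p = 0.235). The labels do not say how ribosomal RNA was removed before sequencing.

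Other genes of the pathway were read from lists of assembly factors, coenzyme Q enzymes, mitochondrial RNA and DNA factors and regulators. Of 119 tested, 9 were higher and 11 lower, with a median of -0.0025, that is 7.56% and 9.24% of the genes, below the background of 12.0% and 10.9%. NDUFAF8, a complex I assembly factor, fell from 33.8, 33.2 and 31.9 CPM with DMSO to 26.3, 24.5 and 24.8 CPM with GSK-A1 (-0.39 ± 0.05, edgeR adjusted p = 7.46e-05). Its groups lay far apart, and it was called in all 21 alternative fits run. So were COQ10B, POLG, REXO2, MTERF4, PTCD2 and HSD17B10, whereas ACAD9, SCO2 and ATP5IF1 were called in 12 of 21 and TTC19 in 13. Among the 18 complex I factors, ACAD9 (-0.15) and FOXRED1 (-0.21, named to complete the count) were also lower and NDUFAF2 (0.16) higher. Of the factors for complexes II and III, TTC19 was higher (0.11; 1 of 10).

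COQ10B, a coenzyme Q binding protein, rose from 18.5, 17.7 and 18.0 CPM to 23.6, 23.0 and 23.1 CPM (0.36 ± 0.05, edgeR adjusted p = 1.92e-04), and COQ4, needed for coenzyme Q synthesis, was lower (-0.25). Among 24 complex IV factors COX15, SCO2 and COA3 were lower (-0.19, -0.17 and -0.13) and CMC2 and COX19 higher (0.21 and 0.19). COX15 works in heme A synthesis and SCO2 in copper delivery, and COA3, outside the naming rule, completes that count. Of the genes for ATP synthase assembly and control, TMEM242 was higher (0.15) and the inhibitor ATP5IF1 lower (-0.13).

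Of the factors that act on mitochondrial nucleic acids, MTERF4, PTCD2 and HSD17B10 were lower (-0.27, -0.28 and -0.22). POLG, the mitochondrial DNA polymerase, REXO2, an oligoribonuclease, and TBRG4 were higher (0.18, 0.29 and 0.15). MTERF4 serves mitochondrial ribosome assembly and HSD17B10 is a subunit of mitochondrial RNase P. TFAM, the factor that packages mitochondrial DNA, read 0.03 ± 0.05 and the RNA polymerase POLRMT 0.03 ± 0.04, neither called. None of the 10 regulators tested was called (0 of 10, beside 22.9% of all genes tested). Among them were NRF1 (0.0010 ± 0.06), GABPA (0.12 ± 0.06), ESRRA (0.12 ± 0.05) and YY1 (0.05 ± 0.04), whose binding motifs or targets include the subunit promoters.

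The direction of the nuclear set kept its sign in the median under all settings but 1 and was smallest once transcript length entered. The plot of medians by setting shows the nuclear median at -0.09 with upper-quartile scaling and at -0.02 with the trend on GC content removed, where the median of all genes was -0.05 and 0.01. The distance between the nuclear median and that of all genes was thus close to -0.04 in each of these. With the length trend removed that distance was about -0.01. The mitochondrial median turned positive without GSK-A1 replicate 2 (0.09), with the length trend removed (0.0077), and with limma-voom library weights (0.019).

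**Figure D5:**
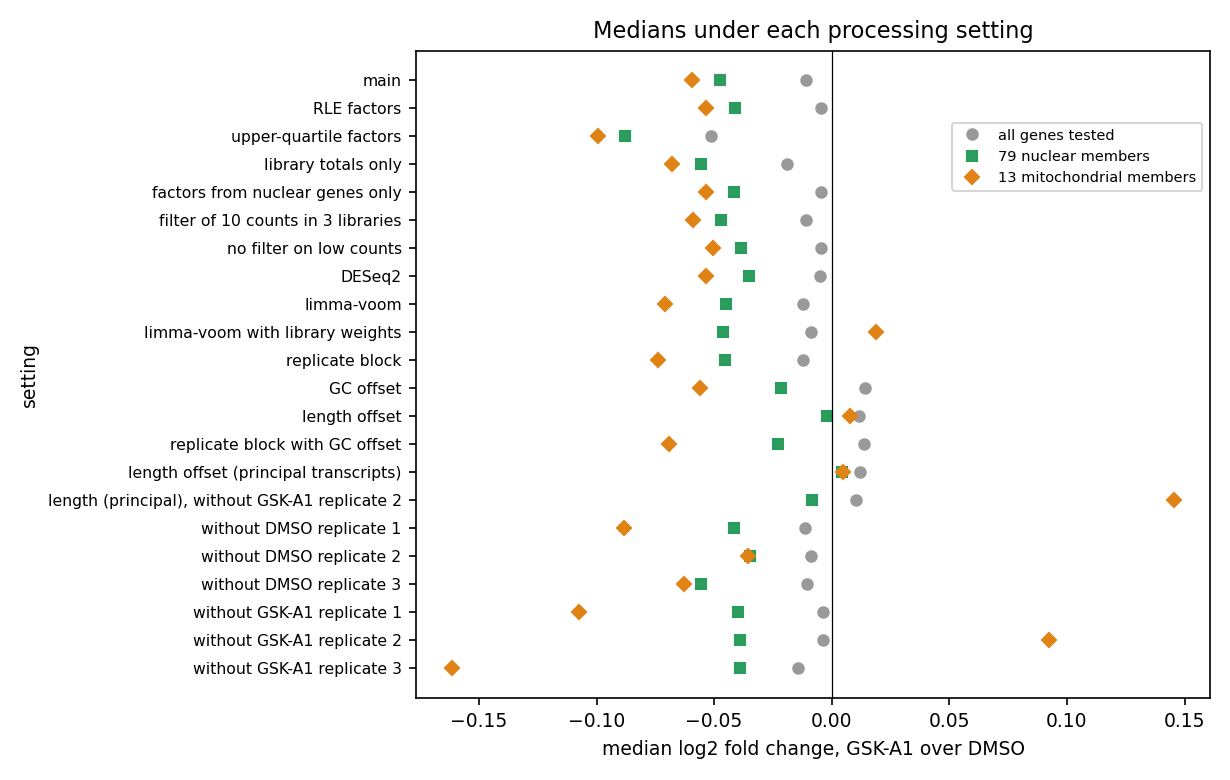
Median log2 fold change (horizontal axis) of all genes tested (grey), of the 79 nuclear members (green) and of the 13 mitochondrial members (orange) under each processing setting (vertical axis). The nuclear median lies left of the grey point in every setting, nearest to it with length offsets, and the mitochondrial median runs from -0.16 when GSK-A1 replicate 3 is left out to 0.145 when GSK-A1 replicate 2 is left out together with the principal-transcript length offset.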

How the data were processed

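Total RNA of 6 HEK293 cultures was made into stranded libraries and sequenced, per the labels' protocols. Per the labels, the authors deposited a table of counts with a column for each library; its values are whole numbers with unequal totals, so they were treated as not normalized. Per the submitters' processing notes, the tools were cutadapt 5.1, STAR 2.7.11b, featureCounts from Subread 2.1.1 and DESeq2 1.38.0 with build GRCh38.p13. The annotation release and the strand setting of the counting are not given in the sources used here. Groups and replicate numbers came from the sample labels, which call the libraries biological replicates without saying how cultures were separated, so p-values measure the spread between these libraries.

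All genes were fitted together with edgeR 4.0.16 in R 4.3.3: filterByExpr (smallest count 10, smallest total 15), TMM factors (0.993 to 1.00), robust dispersions, the quasi-likelihood F test and Benjamini-Hochberg adjustment over 16754 genes, with calls at an adjusted p under 0.05. CPM values rest on each library's total times its TMM factor and are printed per library or as mean ± SD. Standard errors are the log2 coefficient over the root of its F statistic. Variation between replicates, as the common biological coefficient, came to 4.06%. Intervals for read sampling alone were not used.

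GENCODE release 29 gave transcript lengths, GC content, overlaps and shared 50-base stretches. Its release may differ from that behind the counts. Offsets for length or GC content were loess trends of log2 CPM in each library (span 0.3). Alternatives were other factors and filters, DESeq2 1.42.0, limma-voom (limma 3.58.1) with and without library weights, the replicate number as a block, both offsets, a threshold of 0.01 and leaving out each library. Offsets on the principal transcript's length were added after seeing the data. Code was tested on simulated data; where simulated dispersions varied gene by gene, the share of false calls among calls exceeded the nominal threshold, so adjusted p-values close to it are less certain than their size.

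The members and lists were chosen with earlier results of these data known. Genes named are the 13 mitochondrial mRNAs, up to 8 called nuclear members in each direction by smallest p, the smallest p in each part of a complex, the isoform sets, all of complex II and 2 called genes per direction in each pathway list. FASTKD4 was listed beside its other symbol TBRG4 and counted once, and PERM1 was too low to test. Lists are described by counts and medians, without a test. Among these, 1 called member and 1 cell marker are counted but not reported here.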

Additional observations from a re-analysis of the deposited data

How the results depend on the processing

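Of the 13 nuclear members called, each kept its call in 12 to 17 of the 21 alternative fits run for it. The count called higher (2) became 0 with upper-quartile factors and at a threshold of 0.01, 1 with library totals only, 5 with the length offset, 6 with the principal-transcript offset and 10 with that offset and without GSK-A1 replicate 2. The count called lower (11) became 24 with upper-quartile factors, 19 with library weights, 7 with the GC offset, 2 with the length offset, 1 with the principal-transcript offset, 7 with that offset and without GSK-A1 replicate 2, and 0 at a threshold of 0.01. Over all 16754 genes tested, 4027 were called with upper-quartile factors, 5667 with library weights and 4376 with the GC offset. Library totals only gave 3767, the length offset 3781 and the principal-transcript offset 3804, beside 3835 in the main fit. Leaving out 1 library at a time gave 0 to 3 higher, 2 to 20 lower and 0 to 4 mitochondrial calls, the highest of each without GSK-A1 replicate 2. The counts lower were 2, 2 and 3 without DMSO replicate 1, 2 or 3, and they were 6 and 9 when GSK-A1 replicate 1 or 3 was left out. Calls over all genes in these fits were 2163, 2213 and 2206, then 2674 and 3805. Without GSK-A1 replicate 2 they were 4890 of 17399. Same-numbered libraries did not deviate together over all genes (correlations 0.011, 0.019 and 0.032). With 3 libraries per group this cannot settle whether same-numbered cultures were handled together, which the labels do not say. With the replicate number as a block the counts were 2 higher, 13 lower and 1 mitochondrial call, and over all genes 4127 calls. The replicate block with the GC offset gave 4 higher, 9 lower and 1 mitochondrial call, and over all genes 4602 calls. The nuclear median moved to -0.08807 with upper-quartile factors, -0.02156 with the GC offset and -0.02292 with the block and GC offset. It was -0.001846 with the length offset, 0.004289 with the principal-transcript offset and -0.008518 with that offset and without GSK-A1 replicate 2. In this last fit 4945 of 17399 genes were called. Among the 13 mitochondrial genes 7 were called, and the median of the 13 was 0.145. MT-ATP6, MT-ND2, MT-ND4, MT-ND4L, MT-CO2 and MT-CO3 were among those called, all higher. The log2 ratio of the sums ran from -0.156 to 0.110 when 1 library was left out. Signs turned for genes that were not called, as follows. With library weights MT-ATP6 read 0.041, MT-ND2 0.064, MT-ND4 0.00067, MT-ND4L 0.032, MT-CO2 0.019, MT-CO3 0.025, COX6B1 0.018, COX6B2 0.202 and COX7B 0.014. With the length offset MT-ATP6 read 0.059, MT-ND2 0.057, MT-ND4L 0.017, MT-CO2 0.035, MT-CO3 0.0077, COX6B1 0.031, COX7B 0.032 and SDHA 0.020. With the principal-transcript offset MT-ATP6 read 0.058, MT-ND2 0.050, MT-ND4L 0.020, MT-CO2 0.034, MT-CO3 0.0046, COX4I1 0.040, COX6B1 0.030, COX7B 0.023 and SDHA 0.018. With that offset and without GSK-A1 replicate 2, MT-ATP6 read 0.177, MT-ND1 0.050, MT-ND2 0.182, MT-ND4 0.101, MT-ND4L 0.145, MT-CYB 0.069, MT-CO1 0.046, MT-CO2 0.163, MT-CO3 0.158, COX4I1 0.037, COX6B1 0.080, COX6B2 0.020 and COX7B 0.036. Without a filter MT-ND2 read 0.00085 and COX7B 0.0020. With upper-quartile factors COX6A1 read -0.0077, COX7A2 -0.039 and COX8A -0.037, and with library totals COX7A2 -0.0069 and COX8A -0.0045. With the GC offset COX6B1 read 0.020, COX6B2 0.021, COX7A2 -0.0064 and SDHA 0.018, and with the block and GC offset 0.020, 0.061, -0.010 and 0.019. With the block alone COX7A2 read -0.00080, and limma-voom gave 0.030 for COX6B2. Leaving out 1 library gave -0.12 to 0.12 for MT-ATP6, -0.014 to 0.19 for MT-ATP8, -0.12 to 0.13 for MT-ND2, -0.0066 to 0.16 for MT-ND3, -0.15 to 0.066 for MT-ND4, -0.15 to 0.093 for MT-ND4L, -0.20 to 0.024 for MT-CYB, -0.24 to 0.018 for MT-CO1, -0.16 to 0.10 for MT-CO2 and -0.18 to 0.098 for MT-CO3. The ranges were -0.087 to 0.018 for COX6B1, -0.29 to 0.15 for COX6B2, -0.040 to 0.071 for COX7A2, -0.021 to 0.019 for COX7B, -0.048 to 0.065 for COX8A and -0.031 to 0.015 for SDHA. The cause of these turns was not tested. COX6B2, NDUFV2 and NDUFA7 stood near or below 1 CPM, and their standard errors were 0.32, 0.21 and 0.20.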
